A study of Homo sapiens with 6 samples.

Results

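Metallothioneins are small, cysteine-rich proteins that hold zinc and copper through the sulfur atoms of their cysteines. Their genes are known to be switched on through metal response elements, short promoter sequences bound by the zinc-sensing transcription factor MTF1, and also by glucocorticoids and oxidants. In human cells MT2A is usually the main isoform, and the MT1 genes beside it are close copies with patterns that differ between tissues.

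The genes described here are MT1E, MT1F, MT1G, MT1M, MT1X and MT2A, 6 genes chosen by symbol from tables of 41471 and 34157 gene symbols. All 6 were in the table of the CDK16 knockdown experiment and 5 were in the table of the drug experiment, where MT1G was not analysed here. The cells were MDA-MB-231, an established human line of triple-negative breast cancer. In the first experiment the cells stably carried a lentiviral scramble hairpin, or 1 of 2 hairpins against the cyclin-dependent kinase CDK16, named CDK16-sh1 and CDK16-sh2. In the second experiment the cells received DMSO, the solvent, or the kinase inhibitor rebastinib (Reb) at 1 μM or 5 μM, for 48 h. Each condition was 1 RNA-seq library, so no difference between conditions has a replicate check, and each interval given is a 95% counting interval only. In RNA from whole cultures, more cells of one kind and more RNA per cell cannot be told apart.

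The libraries held 25838443 to 50303269 counts. CDK16, the target, went from 3223 counts in scramble to 1360 with CDK16-sh1 and 846 with CDK16-sh2, a log2 fold change of -1.52 and -1.82 for the hairpins, and its log2 fold changes with Reb were -0.14 at 1 μM and 0.27 at 5 μM (-0.42 with library totals). The 6 marker genes that MDA-MB-231 is known to express (VIM, CD44, EGFR, AXL, MSN and CAV1) lay between 3.95 and 833 RPKM, and the 6 that it lacks or holds low (ESR1, PGR, ERBB2, GATA3, CDH1 and EPCAM) lay between 0 and 6.54 RPKM. RPKM is the count divided by the exon length in kilobases and by the library total in megareads, so that levels of genes of unequal length can be set side by side. Mitochondrial transcripts took 16.2% of the counts in CDK16-sh2 and 16.4% at 5 μM Reb, against 7.19% to 11.3% in the other 4 libraries. With these taken out of the library totals, the log2 fold change of MT2A in CDK16-sh2 moved from 1.39 to 1.47. At 5 μM Reb it moved from -1.25 to -1.10. Any further part of mitochondrial transcripts in the results below was not tested.

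The members lie in 1 cluster on chromosome 16 of GRCh38, at the following places in the tables. MT2A spans chr16:56608199-56609497, MT1E spans chr16:56625475-56627112, MT1M spans chr16:56632233-56633986, MT1F spans chr16:56657694-56660698 and MT1X spans chr16:56682424-56684196, all on the plus strand. MT1G spans chr16:56666731-56668065 on the minus strand. The coding sequences of the 3 members with measurable levels are shown because their likeness bears on how reads were divided between them. They come from the GENCODE transcripts MT2A-201, MT1E-201 and MT1X-201, each without its stop codon, and capitals mark the cysteine codons.
MT2A: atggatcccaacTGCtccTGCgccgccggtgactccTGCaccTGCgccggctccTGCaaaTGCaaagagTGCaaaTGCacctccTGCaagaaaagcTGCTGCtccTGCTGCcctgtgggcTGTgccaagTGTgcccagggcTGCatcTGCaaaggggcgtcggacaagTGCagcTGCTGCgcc
MT1E: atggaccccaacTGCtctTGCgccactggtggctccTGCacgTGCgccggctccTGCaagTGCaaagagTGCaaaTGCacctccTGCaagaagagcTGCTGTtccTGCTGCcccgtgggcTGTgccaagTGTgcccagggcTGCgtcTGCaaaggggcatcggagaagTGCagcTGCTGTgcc
MT1X: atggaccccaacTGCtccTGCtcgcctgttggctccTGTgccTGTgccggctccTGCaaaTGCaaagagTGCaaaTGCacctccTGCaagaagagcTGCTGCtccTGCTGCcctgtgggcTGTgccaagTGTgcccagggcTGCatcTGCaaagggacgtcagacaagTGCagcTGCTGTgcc

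Each of these frames has 61 codons, of which 20 encode cysteine. MT1E and MT1X are each 92.3% identical to MT2A in coding sequence, and 90.7% identical to each other. The full transcripts are more distinct: no stretch of 100 bases of MT2A or MT1E occurs in a transcript of another gene, and stretches of 50 bases do so for 3.02% of positions in MT2A and 7.1% in MT1E. MT1X differs in this respect, since 18.3% of its 50-base stretches occur elsewhere. A second gene of the table, RP11-343H19.2, overlaps MT1X on the same strand over 321 exon bases, 58.3% of its own exons. RP11-343H19.2 had 495, 773 and 1228 counts in scramble, CDK16-sh1 and CDK16-sh2, close to the 531, 857 and 1325 counts of MT1X, so reads of these overlapping genes cannot be told apart.

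MT2A was by far the most abundant member in all 6 libraries. Its counts were 53210 for scramble, 62873 for CDK16-sh1 and 148229 for CDK16-sh2, then 114395 in DMSO, 26984 at 1 μM Reb and 36086 at 5 μM Reb. Its level was 1585, 1515 and 4150 RPKM in the knockdown experiment and 1751, 421 and 738 RPKM in the drug experiment. The CDK16-sh2 library was therefore the highest of its experiment, and both Reb libraries were below DMSO. By count MT2A ranked 32nd of all genes in scramble, 31st in CDK16-sh1, 13th in CDK16-sh2, 35th in DMSO, 252nd at 1 μM and 121st at 5 μM.

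MT1E was the second most abundant member per length in every library. Its counts were 1084, 1635 and 2854 in scramble, CDK16-sh1 and CDK16-sh2, and 293, 228 and 329 in DMSO, 1 μM and 5 μM Reb. On the RPKM scale these are 39.9, 48.6 and 98.7, and 5.54, 4.39 and 8.31. MT1E therefore lay far below MT2A throughout, at 2.38% to 3.21% of the MT2A level in the knockdown experiment and 0.316% to 1.13% in the drug experiment.

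MT1X was the third. Its counts were 531, 857 and 1325 in the knockdown experiment and 298, 221 and 184 in the drug experiment, in the same order of libraries. Its levels were 11.6, 15.1 and 27.2 RPKM and 3.34, 2.52 and 2.76 RPKM. In RPKM the order MT2A, MT1E, MT1X held in each library beyond counting error. The smallest gap was that of MT1E over MT1X in DMSO, a log2 RPKM ratio of 0.73 with an interval of 0.50 to 0.96. The tables count all 1299 bases of MT2A and all 1773 bases of MT1X as exon, introns of the common transcripts included, which lowers their RPKM relative to a spliced transcript, while MT1E is counted over 1052 of its 1638 bases. By count MT1E and MT1X were near each other in DMSO (293 and 298) and at 1 μM (228 and 221). Their order in these libraries therefore rests on the lengths used.

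**Figure D1:**
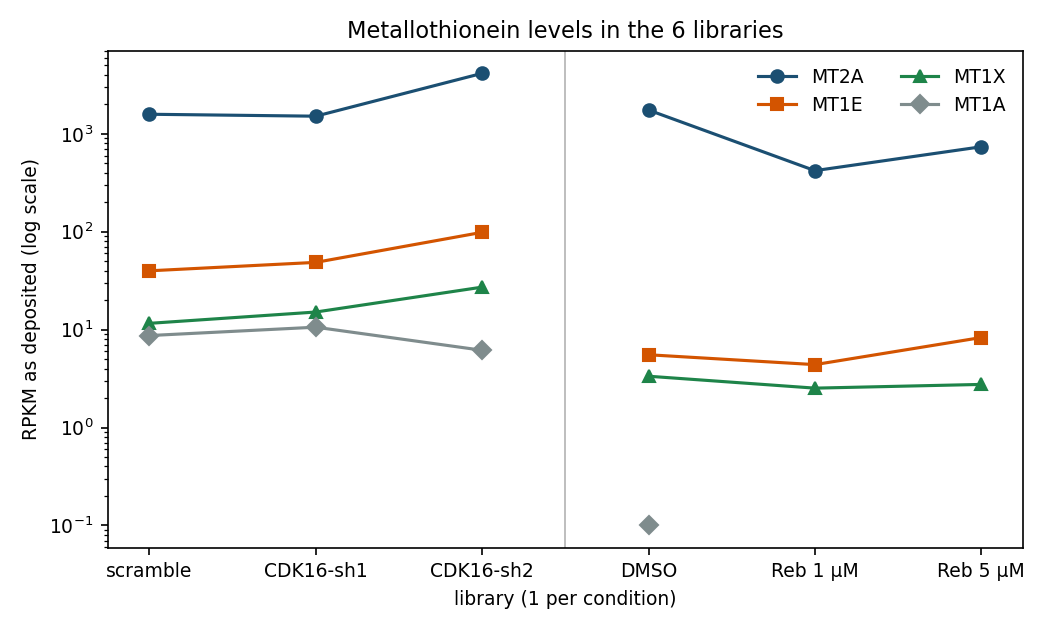
Levels of MT2A, MT1E, MT1X and the further locus MT1A in RPKM (log axis) in the 6 libraries, with 1 point per library and lines joining the libraries of an experiment. MT2A lies between 421 and 4150 RPKM, MT1E between 4.39 and 98.7, and MT1X between 2.52 and 27.2; MT1A is listed at 0 in both Reb libraries and has no point there.

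The other 3 members were at or near the limit of detection. MT1F had 4, 3 and 7 counts in scramble, CDK16-sh1 and CDK16-sh2, and 3, 0 and 0 counts in DMSO, 1 μM and 5 μM Reb. MT1M had 0, 1 and 0 counts, then 0, 1 and 1 counts. MT1G had 0 counts in all 3 libraries of the knockdown experiment, where a count of 0 allows up to 0.116 CPM (counts relative to a library total of a megaread, here for 3 counts). No fold change is given for these 3 genes, which did not reach a mean of 1 CPM over the libraries of an experiment. That minimum kept 15295 genes of the knockdown table and 15655 of the drug table, and with them MT2A, MT1E and MT1X.

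Among the metallothionein loci outside the 6 members, MT1A was the one with more than a few counts. MT1A lies between MT1M and MT1F at chr16:56638666-56640087 and had 89, 134 and 67 counts in scramble, CDK16-sh1 and CDK16-sh2, or 8.70, 10.6 and 6.15 RPKM. In the drug experiment MT1A had 2, 0 and 0 counts. MT1X exceeded MT1A per length in scramble by a log2 ratio of 0.41 (0.09 to 0.74) and in CDK16-sh2 by 2.14 (1.79 to 2.497). The MT1X length includes introns, as given above, which lowers these ratios. MT3, the form known from the brain, had 1, 1 and 0 counts and then 1, 0 and 0 counts. The pseudogene MT1P3 had 1, 0 and 2 counts and then 8, 6 and 1 counts, and the remaining loci with any count, MT1L, MT1DP, MT1JP, MT1P1, MT1XP1 and MT1HL1, had at most 2 in a library.

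Summed over the members, metallothionein transcripts made up 0.212% of all counts in scramble (exact binomial interval 0.210% to 0.214%), 0.205% in CDK16-sh1 (0.203% to 0.206%) and 0.554% in CDK16-sh2 (0.551% to 0.557%). In the drug experiment the share was 0.229% in DMSO (0.227% to 0.230%), 0.0556% at 1 μM (0.0549% to 0.0562%) and 0.0972% at 5 μM (0.0962% to 0.0982%). CDK16-sh2 thus held the largest share and 1 μM Reb the smallest, with both control libraries between them. MT2A supplied 96.2% to 97.3% of the members' counts in the knockdown experiment and 98.4% to 99.5% in the drug experiment, so the summed share mostly follows MT2A. With mitochondrial transcripts taken out of the totals, the share was 0.239%, 0.228% and 0.662% in scramble, CDK16-sh1 and CDK16-sh2, and the order of the libraries was as before.

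**Figure D2:**
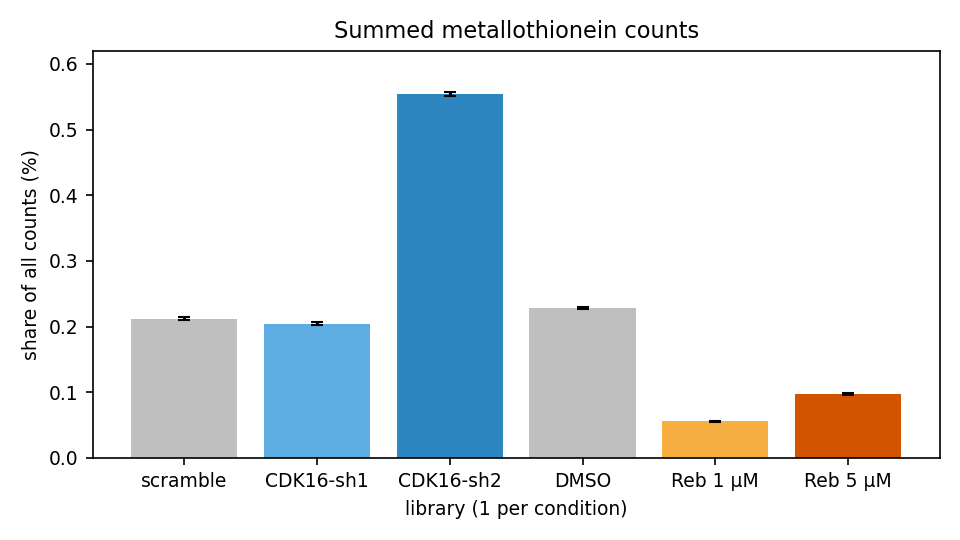
Share of each library's counts assigned to the members, in percent of all counts (bars, axis from 0), with exact binomial intervals. CDK16-sh2 stands at 0.554% against 0.212% in scramble, and the Reb libraries at 0.0556% and 0.0972% against 0.229% in DMSO.

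The question of the knockdown experiment for these genes is how their RNA differs when CDK16 is depleted, and the values differed between the hairpins. Fold changes were computed from CPM scaled by TMM (edgeR), which sets library sizes by the bulk of genes, and a gene was counted as higher or lower at 2-fold. In CDK16-sh2 all 3 measurable members were at least 2-fold higher than in scramble. MT2A was 3.00-fold higher, a log2 fold change of 1.58 (1.57 to 1.60). MT1E was 2.83-fold higher, a log2 fold change of 1.502 (1.40 to 1.61), and MT1X was 2.68-fold higher at 1.42 (1.28 to 1.57). Of all genes tested, 2.2% were at least 2-fold higher and 7.62% at least 2-fold lower in this library, and the median log2 fold change was 1.502 for the members against 0.02 for all genes. Scaling by library totals put all genes lower by 0.19 and the members at 1.39, 1.31 and 1.23 for MT2A, MT1E and MT1X.

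In CDK16-sh1 none of the 3 passed 2-fold in either direction. MT2A had a log2 fold change of -0.04 (-0.05 to -0.02), MT1E of 0.32 (0.20 to 0.43) and MT1X of 0.41 (0.26 to 0.57). Removal of the trend on mean expression and gene length took MT2A to -0.32, MT1E to -0.03 and MT1X to 0.16, and removal of that on GC content and length took them to -0.496, -0.12 and 0.10, so the sign of MT1E depended on the setting. Of all genes tested, 4.33% were at least 2-fold higher and 6.86% at least 2-fold lower, and the members' median was 0.32 against -0.002 for all genes. CDK16 itself was at 1360 counts in this library and 846 in the other.

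Set against each other, the hairpin libraries differed in all 3 members, each at least 2-fold higher in CDK16-sh2 than in CDK16-sh1. The log2 differences were 1.62 (1.61 to 1.63) for MT2A, 1.19 (1.10 to 1.28) for MT1E and 1.01 (0.89 to 1.14) for MT1X. With library totals MT1X was at 0.84 and so under 2-fold. Over all genes, 6.53% were at least 2-fold higher and 8.68% at least 2-fold lower in this comparison, which shares its libraries with the comparisons above.

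In CDK16-sh2 MT1A differed from its neighbours. Its log2 fold change was 0.31 (-0.08 to 0.72) in CDK16-sh1 and -0.30 (-0.78 to 0.17) in CDK16-sh2, both intervals spanning 0. The ratio of 2 genes within a library does not depend on scaling, and in CDK16-sh2 the change of MT2A exceeded that of MT1A by 1.89 on the log2 scale (1.43 to 2.35). The change of MT1E exceeded it by 1.81 (1.34 to 2.27). By contrast, the changes of MT2A and MT1E in CDK16-sh2 differed by 0.08 (-0.02 to 0.18).

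The question of the drug experiment is how the same genes stood after 48 h of Reb, and here the members parted from each other. At 1 μM MT2A was 4.31-fold lower than in DMSO, a log2 fold change of -2.11 (-2.13 to -2.09). MT1E had a log2 fold change of -0.38 (-0.64 to -0.13) and MT1X of -0.45 (-0.71 to -0.20), both below 0 and within 2-fold. MT2A was thus the 1 member of 3 past 2-fold at this dose, where 1.92% of all genes were at least 2-fold lower and 1.28% at least 2-fold higher. The members' median was -0.45 against 0.002 for all genes, and library totals moved all genes by 0.05. On the scale-free comparison within libraries, the change of MT2A minus that of MT1E was -1.72 (-1.97 to -1.47), and minus that of MT1X it was -1.65 (-1.90 to -1.40).

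At 5 μM the values depended on the scaling. With TMM, MT2A had a log2 fold change of -0.56 (-0.57 to -0.54), MT1E of 1.27 (1.04 to 1.51) and MT1X of 0.41 (0.14 to 0.68), so MT1E was the 1 member past 2-fold, on the higher side. With library totals all genes moved by -0.68, and MT2A came to -1.25, MT1E to 0.58 and MT1X to -0.28, so MT1X changed sign and MT2A, not MT1E, passed 2-fold. This library differed broadly from DMSO, with 23.6% of all genes at least 2-fold higher and 27.2% at least 2-fold lower. Removal of the trend on mean expression and gene length took MT2A to -1.74. What did not depend on scaling was the spread between members: the change of MT2A minus that of MT1E was -1.83 (-2.06 to -1.60) and minus that of MT1X -0.97 (-1.23 to -0.70), and MT1E exceeded MT1X by 0.86 (0.51 to 1.21).

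Between the doses, which share the DMSO control in the values above, MT2A was higher at 5 μM than at 1 μM by 1.55 on the log2 scale (1.53 to 1.57), MT1E by 1.65 (1.41 to 1.91) and MT1X by 0.86 (0.58 to 1.16). These made 2 of 3 members at least 2-fold higher, where 22.8% of all genes were at least 2-fold higher and 25.8% at least 2-fold lower. With library totals the values were 0.81, 0.91 and 0.13, all still above 0 and none past 2-fold. Removing the dependence of fold changes on a gene's mean level and length put MT2A at 0.21. MT2A was below DMSO at both doses under both scalings, with its lowest level at 1 μM.

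**Figure D3:**
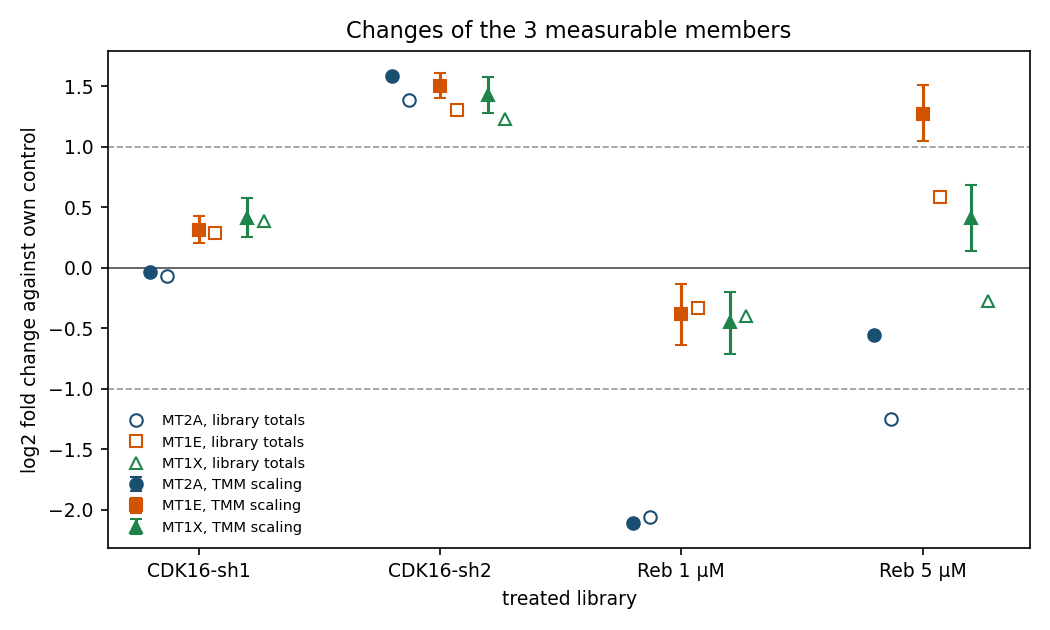
Log2 fold changes of MT2A, MT1E and MT1X in each treated library against its own control, with TMM scaling (filled, bars are 95% counting intervals) and with library totals (open, no intervals); dashed lines mark 2-fold. The 3 members lie together between 1.42 and 1.58 in CDK16-sh2 and apart in both Reb libraries, where MT2A is the lowest.

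A pooled test took both treated libraries of an experiment as 1 group of 2 against the single control, with edgeR's quasi-likelihood test, Benjamini-Hochberg adjustment over all genes tested and a 2-fold minimum. It called 0 members in either experiment. With the hairpins the pooled edgeR log2 fold changes were 0.99 for MT2A, 1.03 for MT1E and 1.01 for MT1X, each with an adjusted p of 0.9997. This test called 0 of 15295 genes, or 0.0%, with 382 genes at an unadjusted p under 0.05, and the DESeq2 Wald test called 0 with 233 such genes. With Reb the edgeR values were -1.13 for MT2A, 0.67 for MT1E and 0.04 for MT1X, each with an adjusted p of 1.0, where the test called 12 genes, or 0.0767%. A fit on log2 of the dose in μM plus 1, as a linear term, was also run. Its quasi-likelihood test in edgeR gave MT1E an unadjusted p of 0.0365 and an adjusted p of 0.107. That test put 37.8% of all genes at an unadjusted p under 0.05.

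Metal response elements were looked for by their core, TGCACNC or TGCGCNC on either strand, in the RefSeq promoters of GRCh38.p14, windows of equal length that reach from before the gene start to shortly after it. Of the members, MT2A and MT1X had a promoter in that table. MT1X held 4 cores, a number that 0.601% of 35116 promoters reached, and MT2A held 8, which 0.02% reached. Cores occurred in 29.6% of all promoters. The MT1X stretch is shown because it holds all 4 cores of a member that was higher in CDK16-sh2, and the MT2A windows because that gene differed most at 1 μM Reb. Capitals mark the cores, and a match describes letters only. The MT1X stretch is chr16:56682220-56682423 and the MT2A windows are chr16:56608490-56608508, chr16:56608524-56608542 and chr16:56608570-56608588, all on the plus strand.
MT1X promoter: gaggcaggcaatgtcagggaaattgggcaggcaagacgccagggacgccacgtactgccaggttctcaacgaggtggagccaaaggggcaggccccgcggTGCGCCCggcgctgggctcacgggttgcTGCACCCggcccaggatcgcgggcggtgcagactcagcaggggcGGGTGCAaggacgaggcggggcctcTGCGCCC
MT2A window at -88: cggggcGTGTGCAggcagc
MT2A window at -54: ggctttTGCACTCgtcccg
MT2A window at -8: ccgcgcTGCACTCcaccac

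The windows are named by the position of the first base of the core from the RefSeq start of MT2A, and they are the 3 cores nearest before it. The motif TGANTCA, read by AP-1 factors, occurred 1 time in the MT2A promoter and not in that of MT1X, against 7.71% of all promoters with a match. The promoters of 2 loci outside the members, MT1H and MT1B, held 8 and 3 cores. MT1B had 0 counts in all 6 libraries, so cores were also present at a locus without counts here.

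Genes around the cluster were followed to see whether the members stood apart from their surroundings. Within 200000 bases, 7 other genes passed the filter in the knockdown experiment, and their median log2 fold changes were -0.28 in CDK16-sh1 and 0.29 in CDK16-sh2. Within 500000 bases the medians of 12 genes were 0.08 and -0.02, so their signs depended on the window. The 1 that was at least 2-fold higher in CDK16-sh2 was RP11-343H19.2, at 1.41, which shares exons with MT1X. In this library 2.2% of all genes were at least 2-fold higher. NUP93 of the nuclear pore, beyond MT1X, had 1836, 1835 and 2205 counts and a log2 fold change of 0.37 in CDK16-sh2, and BBS2, a cilium gene before MT2A, had 0.29. At 1 μM Reb none of the 6 neighbours that passed the filter was past 2-fold. A count of 0 among so few lies near the shares of all genes, 1.28% higher and 1.92% lower. Their values ran from -0.53 for RP11-343H19.2 to 0.31 for OGFOD1, with a median of 0.08, against -0.06 within 500000 bases. At 5 μM these neighbours ranged from -1.70 for OGFOD1 to 2.57 for NUDT21, a cleavage factor of mRNA ends. The median at this dose was 0.64, against -0.51 within 500000 bases. RP11-249C24.10, on the minus strand next to MT2A, did not pass the filter. It had 49, 14 and 3 counts in DMSO, 1 μM and 5 μM, log2 fold changes of -1.67 and -2.53. In scramble, CDK16-sh1 and CDK16-sh2 it had 16, 27 and 15 counts.

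**Figure D4:**
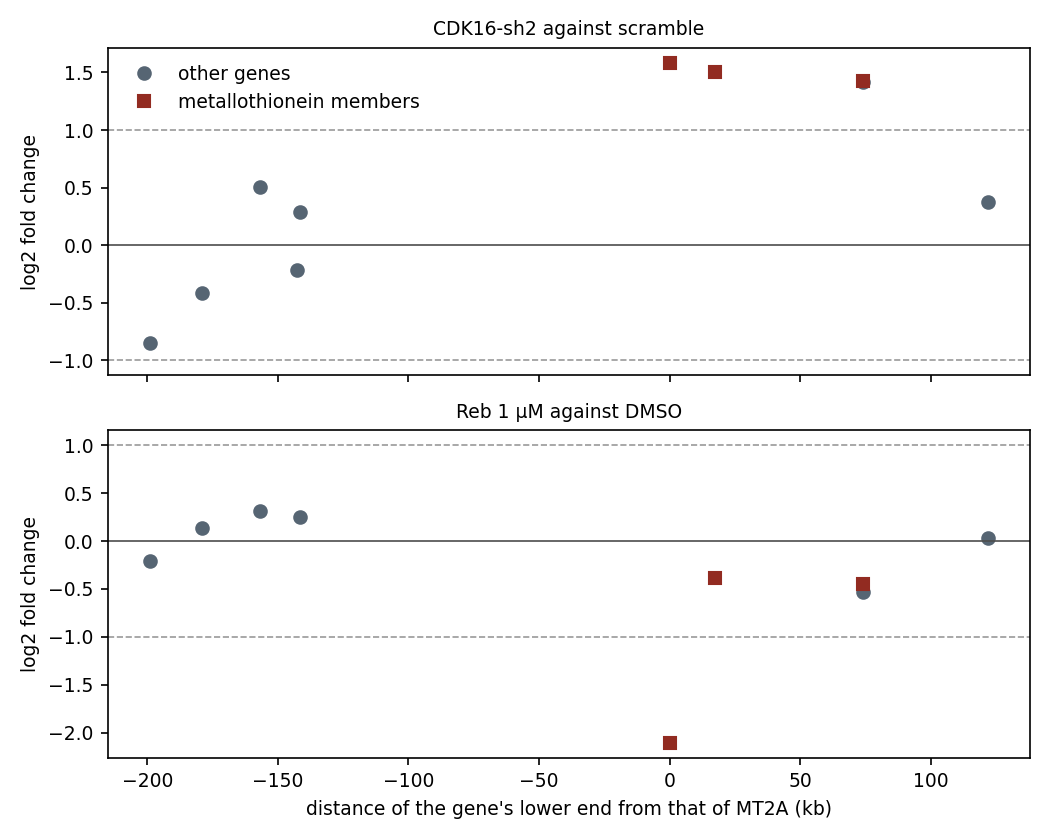
Log2 fold changes (TMM) of tested genes within 200000 bases of the cluster against distance in kb, each gene placed by the lower end of its span relative to MT2A, for CDK16-sh2 against scramble and 1 μM Reb against DMSO; squares are members, circles other genes, and dashed lines mark 2-fold. In CDK16-sh2 the members lie above 2-fold with the circle of RP11-343H19.2 at MT1X beside them, and at 1 μM Reb MT2A at -2.11 lies alone below 2-fold.

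None of the zinc transport genes tested was at least 2-fold higher with either hairpin. Such a count lies near the shares of all genes that were higher, 4.33% in CDK16-sh1 and 2.2% in CDK16-sh2. The shares of all genes that were lower were 6.86% and 7.62%. Of 6 zinc exporters tested, 0 were at least 2-fold higher and 1 lower in CDK16-sh2, with a median of -0.11. In CDK16-sh1 0 were higher and 2 lower, with a median of -0.85. SLC30A1, the zinc exporter of the cell surface and a known MTF1 target, had 693, 371 and 611 counts, log2 fold changes of -1.17 and -0.07. SLC30A5 was at -0.85 and -0.15, and SLC30A6 at 0.07 and 0.25. Of 11 zinc importers, 2 were lower in each hairpin and 0 higher, with medians of 0.25 and -0.09. SLC39A8, an importer of zinc and manganese, had 802, 541 and 305 counts (-0.84 and -1.28), and SLC39A9 was at -0.10 and -0.33, while SLC39A13 was at 0.74 and 0.85 and SLC39A3 at 0.65 and 0.20.

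MTF1 itself, at 597, 815 and 632 counts, differed by 0.17 (CDK16-sh1) and 0.19 (CDK16-sh2) on the log2 scale, the second being -0.01 with library totals. Of the 7 genes listed as MTF1 and genes under its control, 3 were at least 2-fold lower in CDK16-sh1 and 0 passed 2-fold in CDK16-sh2, with medians of -0.67 and -0.07. Over all genes, 4.33% were higher and 6.86% lower in CDK16-sh1, and 2.2% higher and 7.62% lower in CDK16-sh2. SLC39A10, a zinc importer that MTF1 is known to repress, was at -1.74 and -0.09. With such a gene included, the median of this list has no single expected direction. The lists overlap, since SLC30A1 and SLC39A10 are also counted with the zinc transport genes and GCLC with the stress genes. GCLC, a subunit of the enzyme that starts glutathione synthesis, was at -0.67 and -0.32, and the selenoprotein gene listed as C11orf31 was at 0.55 and 0.49. With library totals 1 of the 7, PGF, a growth factor named here for its value, was past 2-fold in CDK16-sh2, at -1.10.

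Copper handling, oxidant stress and glucocorticoid genes differed gene by gene. Shares over all genes were 4.33% higher and 6.86% lower in CDK16-sh1, and 2.2% higher and 7.62% lower in CDK16-sh2. Of 17 copper genes, 1 was higher and 3 lower in CDK16-sh2 and 0 passed 2-fold in CDK16-sh1, with medians of 0.26 and 0.14. CUTC was at 0.41 and 1.12 (0.93 in CDK16-sh2 with library totals, which left 0 higher), CCS, the copper chaperone of superoxide dismutase, at 0.52 and 0.67, COX11 at -0.37 and -0.34, and COMMD1 at -0.30 and -1.36 in CDK16-sh1 and CDK16-sh2. Of 14 oxidant and metal stress genes, 2 were lower in CDK16-sh1, and 1 was higher and 1 lower in CDK16-sh2, with medians of -0.36 and 0.14 (-0.06 for the second with library totals). HMOX1, heme oxygenase, was at 0.98 and 0.75, OSGIN1 at 0.31 and 1.23, and TXNRD1, thioredoxin reductase, at -1.16 and -1.91.

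Of 10 glucocorticoid response genes tested with the hairpins, 3 were higher and 1 lower in CDK16-sh1, and 1 was higher and 1 lower in CDK16-sh2, with medians of 0.67 and 0.21. The shares of all genes higher and lower were 4.33% and 6.86% in CDK16-sh1, and 2.2% and 7.62% in CDK16-sh2. FKBP5, a chaperone of the glucocorticoid receptor, had 1001, 464 and 345 counts (-1.38 and -1.43). CEBPD had 83, 323 and 213 counts (1.66 and 1.45) and TSC22D3 was at 0.80 and 0.33. NR3C1, the receptor itself, was at -0.47 and -0.18. FKBP5 and CEBPD, both induced by glucocorticoids as background knowledge has it, therefore lay on opposite sides of 0 in both hairpin libraries.

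At 1 μM Reb, where MT2A was 4.31-fold lower, few of the listed genes were past 2-fold. None of the 6 zinc exporters, 11 zinc importers, 6 MTF1 genes, 17 copper genes or 14 stress genes tested passed 2-fold, and their medians were 0.35, -0.04, -0.16, 0.10 and -0.08. At this dose 1.28% of all genes were at least 2-fold higher and 1.92% lower. Counts of 0 in lists of this length lie near these shares. MTF1 was at -0.04 with 983 and 969 counts in DMSO and 1 μM, and SLC30A1 was at 0.01 with 381 and 391 counts. SLC39A8 was the highest of the importers at 0.92, and HMOX1 was at -0.46. Of 11 glucocorticoid response genes, 2 were at least 2-fold lower, with a median of -0.21. They were DUSP1, a phosphatase of MAP kinases, with 2784, 678 and 607 counts in DMSO, 1 μM and 5 μM, and CEBPD with 248, 44 and 50 counts. Their log2 fold changes at 1 μM were -2.06 and -2.45, ERRFI1 was at -0.76, and FKBP5 was at 0.24, NR3C1 at -0.19 and TSC22D3 at 0.60.

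At 5 μM many listed genes were past 2-fold, as were many genes at large. With TMM, 23.6% of all genes were at least 2-fold higher and 27.2% lower. Over all listed genes 17 were at least 2-fold higher and 14 lower with TMM, and 8 higher and 26 lower with library totals. The median of all genes was -0.07 with TMM and -0.75 with library totals. Shares of all genes past 2-fold with library totals are not given here, so counts under that scaling have no share beside them. Of the 14 stress genes, 8 were higher and 0 lower with TMM, with a median of 1.30, and 4 were higher and 2 lower with library totals, with a median of 0.61, where 23.6% of all genes were higher with TMM. SLC7A11, the cystine importer, was at 1.504 with TMM and 0.81 with library totals, HMOX1 at 1.33 and 0.65, and NQO1 at 0.99 and 0.30, while HSPA8 was at -0.43 and -1.12 and DNAJB1 at -0.39 and -1.08. Of 6 zinc exporters, 4 were lower and 0 higher with TMM (5 and 0 with library totals), with a median of -1.30, and SLC30A1 was at 0.84 with TMM and 0.16 with library totals.

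Of 11 importers at 5 μM, 3 were higher and 2 lower with TMM, with a median of 0.19, and 1 higher and 4 lower with library totals, with a median of -0.50. The TMM counts here stand beside shares of 23.6% higher and 27.2% lower over all genes. Those with library totals stand beside a median of -0.75 over all genes, with no share given. SLC39A8 was at 1.91, SLC39A13 at -1.22 and SLC39A3 at -0.21, and SLC39A6 at 0.67 turned to -0.02 with library totals. Of 6 MTF1 genes, 2 were higher and 1 lower with TMM (1 and 2 with library totals), with a median of 0.84, MTF1 at 1.39 (0.70 with library totals) and SLC39A10 at -0.51 (-1.20). Of 17 copper genes, 4 were higher and 3 lower with TMM (2 and 9 with library totals), with a median of -0.45, SCO1 at 1.86, COX19 at 0.76 (0.07 with library totals), CCS at -1.34 and COX11 at -0.92. Of 11 glucocorticoid response genes, 1 was higher and 4 lower with TMM (1 and 5 with library totals), with a median of -0.24: TSC22D3 was at 4.02 with 185, 286 and 1408 counts in DMSO, 1 μM and 5 μM, and DUSP1 at -1.09, ERRFI1 at -0.24, NR3C1 at -0.16 and FKBP5 at -1.51.

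**Figure D5:**
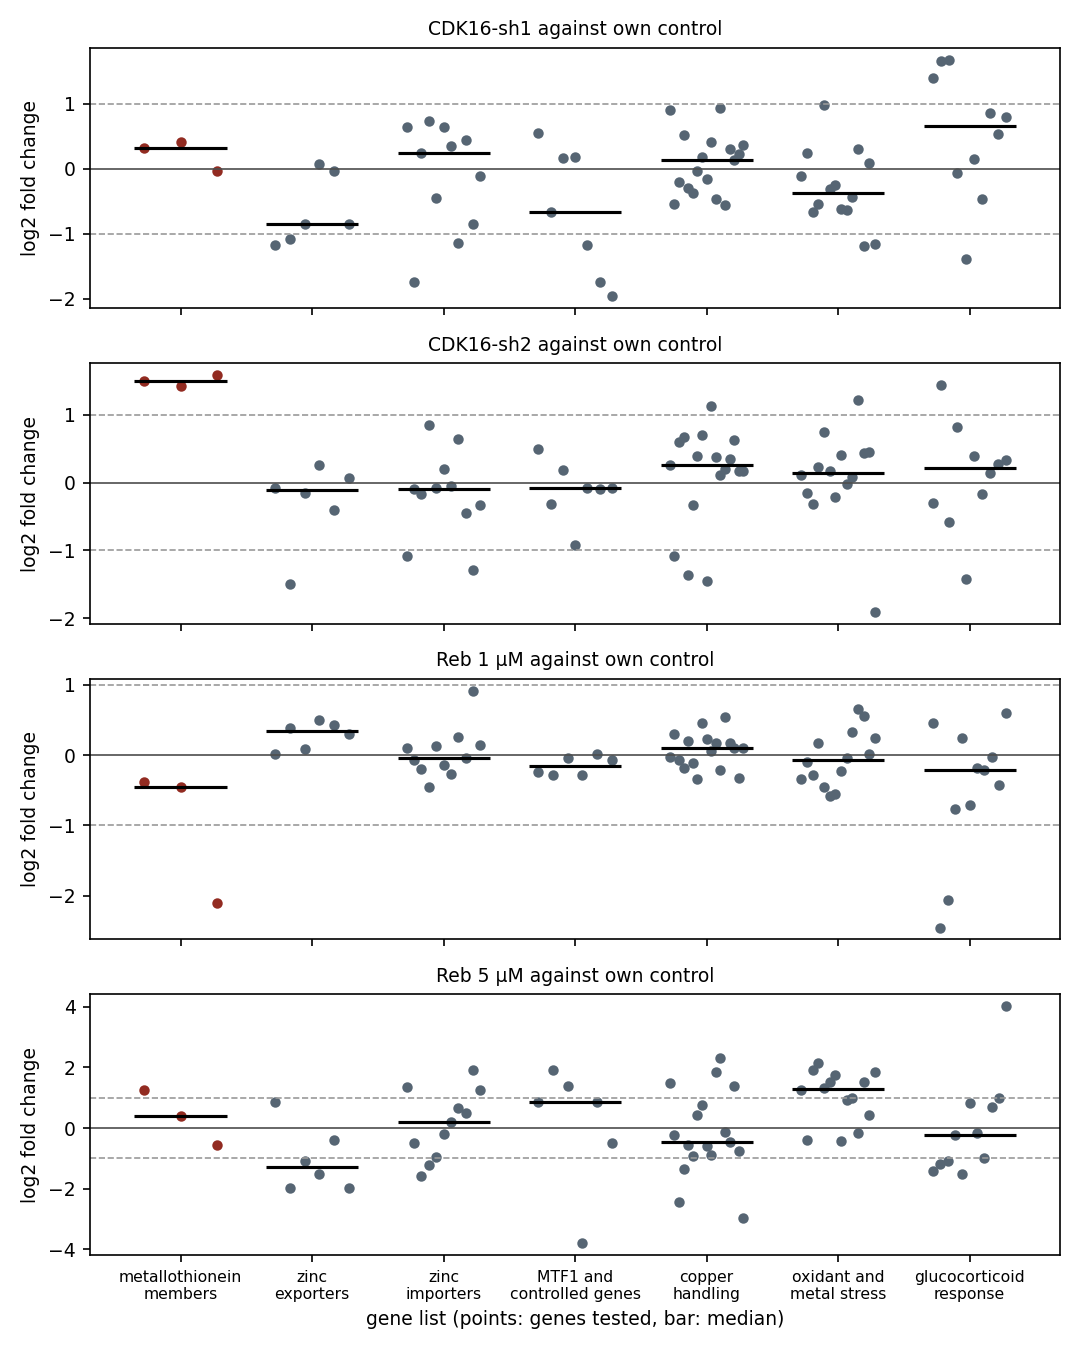
Log2 fold changes (TMM) of the members and of the listed genes in each treated library against its own control, with 1 point per gene tested, bars for medians and dashed lines at 2-fold; the vertical scales differ between panels. In CDK16-sh2 the 3 members lie between 1.42 and 1.58 while the list medians lie between -0.11 and 0.26, and at 1 μM MT2A at -2.11 lies with DUSP1 and CEBPD below the other listed genes.

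The genes most like the members over the 4 comparisons were found by the Euclidean distance between a gene's 4 log2 fold changes and the members' medians, over the 10551 genes that averaged 5 CPM or more in both tables. LAMB3, a laminin chain of basement membranes, was nearest, at a distance of 0.37, with log2 fold changes of 0.41, 1.32, -0.28 and 0.15 in CDK16-sh1, CDK16-sh2, 1 μM and 5 μM. CIR1, HYPK, RPL6P27, HSPBAP1, HNRNPA3P6, DNPH1, CLNS1A, DDRGK1 and PODXL2 followed, at distances up to 0.61. RPL6P27 and HNRNPA3P6 are named as pseudogenes, whose reads may be shared with their parent genes. The members themselves lay at 0.13 for MT1X, 0.86 for MT1E and 1.95 for MT2A from their own medians, so MT1E and MT2A were farther from that middle pattern than each of the 10 genes.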

How the data were processed

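The counts and RPKM values are those the authors deposited, 1 table of each per experiment, and RPKM was deposited as the count over exon kilobases and over the library total. Per the labels, RNA was sequenced from stranded mRNA libraries, and the submitters' processing notes name Trimmomatic, featureCounts (Subread 1.5.1) and GRCh38; the aligner and annotation, and whether counting used strand, are not given in the sources used here. Library totals (25838443 to 50303269) set the counting precision.

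Each gene's count was scaled by TMM (edgeR 4.0.16, R 4.3.3; prior count 2) and set against the control of its own experiment, with exact Clopper-Pearson intervals at 95%. Differences between genes within libraries have Wald intervals on the log scale. Intervals cover counting error only, since each condition was 1 library. PCR copies, where not marked by molecular identifiers, would make them too narrow. Pooled tests used edgeR's quasi-likelihood test at an adjusted p of 0.05 and 2-fold; DESeq2 1.42.0 was an alternative. Such a test has a spread from 2 treated libraries that differ in hairpin or dose. On simulated data at a coefficient of variation of 0.1 the test called 200 of 200 changed genes in each experiment. At 0.4 it called 77 (knockdown) and 98 (Reb). The median log2 fold change of the changed genes was 2.965 to 3.064 in these runs. Detection of smaller values, such as the pooled ones of the members, was not tested. Sequences came from the GENCODE transcripts and RefSeq promoters.

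The genes named are the 6 members, the metallothionein loci with counts, 7 genes known in metal, heme or glucocorticoid responses, CDK16, genes within 200000 bases of the cluster, the 10 most similar genes and, per list, among genes averaging 5 CPM or more, up to 2 with the largest difference in each direction shared by both treated libraries. CEBPD and DUSP1 at 1 μM, OGFOD1 and NUDT21 at 5 μM are also named for their values. Members and lists were chosen with earlier results of these data known. Alternatives were other scalings, prior counts, filters, thresholds, trend removal, RPKM in place of counts, a wider window and separate motif forms.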

Additional observations from a re-analysis of the deposited data

How the results depend on the processing

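No paired analysis was possible because each condition was 1 library with no replicate number, and leaving out a treated library leaves 1 against 1, a value with no test. The pooled test called 0 members under every alternative run. Of 162 values of single members under alternatives, 90 moved by less than their counting interval and 72 by more. MT2A ranged from -0.496 to -0.04 in CDK16-sh1, from 1.19 to 1.59 in CDK16-sh2, from -2.11 to -1.91 at 1 μM, from -1.74 to -0.49 at 5 μM and from 0.21 to 1.62 between the doses. MT1E in CDK16-sh1 ranged from -0.12 to 0.32 and MT1X at 5 μM from -0.28 to 0.60, so their signs depended on the setting. The cause was not tested.

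Counts of members past 2-fold moved as follows, and shares of all genes are not given for these alternatives. In CDK16-sh2 against CDK16-sh1 the 3 became 2 with library totals, totals without mitochondrial transcripts, RPKM or a mean of at least 5 CPM (MT1X at 0.99 in the last), and 4 without a filter, with MT1F at 3 and 7 counts. A 4-fold threshold left 0 higher in CDK16-sh2, 0 in CDK16-sh2 against CDK16-sh1, 0 at 5 μM and 0 at 5 μM against 1 μM. At 5 μM against DMSO, library totals, the totals without mitochondrial transcripts and the RPKM each gave 0 higher and 1 lower, no filter gave 1 lower, which was MT1F at 3 and 0 counts with MT2A at -0.76, and removal of the trend on mean expression and length gave 1 lower, MT2A. At 5 μM against 1 μM, 0 were higher with library totals, 1 with totals without mitochondrial transcripts, 0 with RPKM and 1 with that trend removed. Without a filter 2 were lower at 1 μM, the other being MT1F at 3 and 0 counts.

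Shares of all genes under the alternatives of this paragraph are not given here. Its counts therefore show only how the listed genes moved with the setting, not whether they differed from genes at large. Over the listed genes, a 1.5-fold threshold gave 11 higher and 14 lower in CDK16-sh1, 11 higher in CDK16-sh2, 3 higher and 4 lower at 1 μM and 26 higher at 5 μM. A 4-fold threshold gave 0 higher and 0 lower in both hairpins and 3 higher and 3 lower at 5 μM. Removal of the trend on GC content and length left 2 lower in CDK16-sh1. Without a filter 5 were higher in CDK16-sh2 and 2 at 1 μM. With a mean of at least 5 CPM, 5 were lower in CDK16-sh2, 1 at 1 μM and 8 at 5 μM. At 5 μM library totals gave 8 higher and 26 lower, totals without mitochondrial transcripts 8 and 22, and RPKM 8 and 23. Without mitochondrial transcripts the members' share was 0.239% in scramble, 0.228% in CDK16-sh1, 0.662% in CDK16-sh2, 0.246% in DMSO, 0.0606% at 1 μM and 0.116% at 5 μM. Counting core forms separately left 2 TGCGCNC cores in MT2A, and 2 of each form in MT1X.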
